A study of Mus musculus with 6 samples.

Results

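Host restriction factors are cellular proteins that block a step of viral replication inside the cell. The 8 described here, Samhd1, Bst2, Ifitm2, Ifitm3, Rsad2, Isg20, Rtp4 and Xaf1, were chosen by name as interferon-inducible factors outside the IFIT, OAS and TRIM families, and each matched 1 gene symbol among the 14701 protein-coding genes of the deposited tables. RNA had been sequenced from IEC 4.1, a mouse cell line labelled as intestinal epithelium, either left untreated (controls, replicates 2, 3 and 4) or exposed for 6 h to 10 ng/ml interferon-gamma (replicates 1, 2 and 4). Each group had n = 3, and no other allele or agent is named. Nothing in the labels says that the replicates came from separate cultures, and p-values then cover only the spread between these samples, which may be technical.

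Interferon-gamma is bound by a receptor whose kinases activate STAT transcription factors. STAT dimers bind the GAS element, complexes that contain IRF proteins bind the ISRE, and both elements lie in promoters of interferon-stimulated genes. The restriction factors act at different steps: IFITM proteins hinder the fusion of viral and endosomal membranes, Samhd1 cleaves the nucleotides needed for reverse transcription, Isg20 degrades RNA, Rsad2 (viperin) makes a chain-terminating nucleotide, and Bst2 (tetherin) holds budding virions at the cell surface.

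Promoter sequences show which of these elements lie near the annotated start sites. RefSeq windows of 300 bases (build GRCm38.p6, 250 before the start and 50 after) were found for 7 of the 8 genes, with 3 start sites for Isg20, and were searched for the ISRE core GAAANNGAAA on both strands and for the GAS core TTCNNNGAA, which reads alike on both strands. Of 32851 mouse promoter windows of this length, 3.44% held the ISRE core, 8.3% the GAS core and 0.454% both. Stretches of 180 bases are printed for the 4 genes with an ISRE core, 5′ to 3′ on the gene's strand, with the matches to either core in capitals. They run from 150 bases before the start to 30 after it, at chr7:140955932-140956111 for Ifitm2, chr7:141010715-141010894 for Ifitm3, chr8:71537443-71537622 for Bst2 and chr12:26456423-26456602 for Rsad2, all on the minus strand.
Ifitm2: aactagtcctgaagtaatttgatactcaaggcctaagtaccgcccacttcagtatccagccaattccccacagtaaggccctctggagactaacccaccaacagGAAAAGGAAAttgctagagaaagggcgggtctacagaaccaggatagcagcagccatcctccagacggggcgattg
Ifitm3: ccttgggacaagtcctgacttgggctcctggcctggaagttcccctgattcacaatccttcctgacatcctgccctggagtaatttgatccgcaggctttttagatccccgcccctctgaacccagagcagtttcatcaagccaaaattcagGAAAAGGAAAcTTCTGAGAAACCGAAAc
Bst2: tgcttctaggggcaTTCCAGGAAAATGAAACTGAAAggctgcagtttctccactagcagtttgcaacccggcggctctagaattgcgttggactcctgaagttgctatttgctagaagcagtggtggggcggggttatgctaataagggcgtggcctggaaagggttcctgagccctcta
Rsad2: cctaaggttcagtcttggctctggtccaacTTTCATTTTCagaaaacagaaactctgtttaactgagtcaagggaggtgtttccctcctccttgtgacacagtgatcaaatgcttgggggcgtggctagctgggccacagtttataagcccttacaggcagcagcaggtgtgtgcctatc

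Ifitm2 and Ifitm3 are shown together because they are neighbouring relatives whose RNA responses differed. Their windows share the run CAGGAAAAGGAAA of 13 bases, the longest exact run they have in common, which holds the same ISRE core in both. Positions are counted from the start site, which is base 1, with no base 0. The shared core lies at -46 to -37 in Ifitm2 and at 3 to 12 in Ifitm3. Ifitm3 holds a second ISRE core at 20 to 29 and a GAS core at 14 to 22 that overlaps it, and the Ifitm2 window holds neither. That Ifitm2 window, 140955912 to 140956211, lies inside the annotated gene span, whose 5′ end is at 140959686 and was not searched. The Ifitm3 window, in contrast, holds the 5′ end of its gene span, at 141010744. Whether the difference in letters bears on the difference in response was not tested. Bst2 has 2 overlapping ISRE cores, at -130 to -121 and -124 to -115, and a GAS core at -136 to -128 that overlaps the first. Such pairs are rare: 2 or more ISRE cores stood in 0.225% of all windows. Rsad2 has 1 ISRE core, on the opposite strand, at -120 to -111. Samhd1 has a GAS core, TTCGGAGAA, at -235 to -227, and the first Isg20 start site has TTCTTGGAA at -73 to -65, neither with an ISRE core. In the Xaf1 window and at the other Isg20 start sites neither set of letters was present. A match is a description of the letters only.

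Libraries held 17490689 to 18678543 counts, in ranges that overlapped between the groups. Every gene listed had a count in at least 1 control, whereas 673 genes had none in any treated library, so genes silent in controls have no values here. The label of the line was checked against markers: 9 of 14 epithelial genes had a row, all were under 1 CPM (counts scaled to library size) in every library, and their summed level was 0.739 to 1.17 CPM in controls and 0.53 to 0.89 CPM in treated libraries. The epithelial label was thus not matched by these markers, and Epcam, Cdx2, Cldn7, Cldn3 and Fabp2 were not analysed here. The 8 mesenchymal genes with a row, of 9, summed to 5133 to 5362 CPM in controls and 5052 to 5429 CPM in treated libraries. Of 7 tested, 2 rose (Vim and Dcn) and 5 fell (Col1a1, Col1a2, Col3a1, Pdgfra and Pdgfrb). Over all genes tested, 19.9% rose and 18.1% fell. Vim, the largest part of the sum, went from a mean of 2386 to 2946 CPM, so the similar sums do not mean that these genes were unchanged. Of 11 leukocyte genes 6 had a row and 2 were tested, neither of which passed, and the pan-leukocyte marker Ptprc was at most 1 count in any library. Leukocyte genes summed to 22.9 to 26.2 CPM in controls and 20.5 to 22 CPM in treated libraries, nearly all of it Cd14, and of 4 endothelial genes 2 had a row, both under 1 CPM. In bulk RNA, a change in the share of expressing cells and a change in RNA per cell cannot be told apart.

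All 8 genes were higher in each treated library than in any control, by TPM (a level scaled for gene length and library size). The smallest gain in proportion was that of Ifitm2, and the largest that of Xaf1, from a very low control level. Counts of 7 genes were high enough for testing, and all 7 rose with edgeR at an adjusted p under 0.05, against 19.9% of the 11423 genes tested that rose and 18.1% that fell. On total counts in place of TMM scaling the split over all genes was 1644 risen and 3124 fallen in place of 2278 and 2069, and on log2(TPM + 0.1) the median of all genes moved from 0.01 to -0.10, while the 7 rose under both. At least 4-fold rises were seen for 5 of the 7, against 1.99% of all genes tested, and the same 5 make up those of at least 2-fold, against 4.03%. Ifitm3 is the member nearest to the 4-fold mark, at 4.01-fold. Levels that were higher in every treated library than in every control were found for 11.7% of all 14701 genes. The median log2 fold change of the 7 was 2.54, against 0.01 for all genes tested. The members were chosen as interferon-inducible and with earlier results of these data known. The contrasts with all genes are thus descriptions and not tests of the set. Rsad2, at 1 to 8 counts in every library, stayed under the count filter and is described apart.

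**Figure D1:**
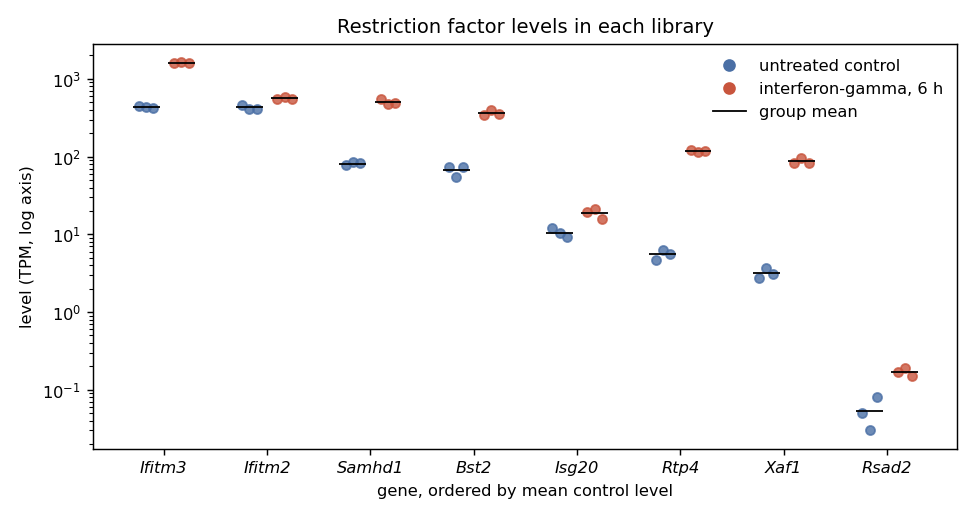
Level of each gene in each library (TPM, log axis), with genes in order of their mean control level, points for the 3 control and the 3 treated libraries and a line at each group mean. The groups do not overlap for any gene, and Rsad2 stays under 0.2 TPM throughout.

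Ifitm3 and Ifitm2 were the most abundant of these transcripts by mean TPM. By CPM, not scaled for gene length, Samhd1 was higher, at 168 (controls) and 1145 (treated), against 97.9 and 392 for Ifitm3. Ifitm3 (NCBI Gene 66141, chromosome 7, 141009590 to 141010744) stood at 453, 431 and 417 TPM in control replicates 2, 3 and 4, and at 1621, 1630 and 1594 TPM in treated replicates 1, 2 and 4. Every treated library lay more than 3-fold above every control. In the edgeR fit Ifitm3 had a log2 fold change of 2.00 ± 0.06 (SE from the replicates, n = 3 in each group, adjusted p = 1.55e-17). It went from rank 346 to rank 100 among all genes by mean TPM. Ifitm2 (NCBI Gene 80876, chromosome 7, 140954837 to 140959686) stood at 465, 412 and 409 TPM in controls and at 555, 590 and 548 TPM in treated libraries. The groups were separate but close, with control replicate 2 nearest to the treated libraries. Ifitm2 rose with a log2 fold change of 0.51 ± 0.09 (adjusted p = 1.4e-06, edgeR), which is 1.42-fold.

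The balance between the 2 relatives therefore shifted. Ifitm3 made up 49.4%, 51.1% and 50.5% of the summed TPM of Ifitm2 and Ifitm3 in controls and 74.5%, 73.4% and 74.4% in treated libraries. The share was 50.3 ± 0.903% in controls and 74.1 ± 0.589% in treated libraries (mean ± SD, n = 3 per group), a difference of 23.8 percentage points that far exceeds the spread between replicates. An exact two-sided permutation test gave p = 0.1, the smallest that 3 samples against 3 allow. Both genes had whole-number counts in every library. Part of the annotated Ifitm2 exons, 268 bases, is shared with the gene model Gm45717 on the same strand, so some Ifitm2 reads could come from it.

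Other IFITM genes were near the floor. Ifitm1, which lies between Ifitm2 and Ifitm3, had 1, 1 and 0 counts in controls and 10, 8 and 6 in treated libraries. That is a depth-scaled ratio of 12.8, with an exact 95% binomial interval of 3.17 to 111 that covers counting error only. Ifitm5, on the other side of Ifitm2, had 3, 5 and 2 counts against 7, 7 and 3, with a ratio of 1.81 and an interval of 0.782 to 4.42. Ifitm6 had 1 count over all libraries, and Ifitm10, farther along chromosome 7, went from 1.52 to 1.88 CPM (log2 0.31, adjusted p = 0.347). Ifitm7 was not analysed here. Of the 5 other members of the family, 4 had a row, and Ifitm10 alone had enough counts for the filtered fit. With no count filter Ifitm1, whose groups were separate, rose (edgeR log2 3.44, adjusted p = 3.35e-04), while Ifitm5 (adjusted p = 0.35) and Ifitm6 (adjusted p = 0.52) did not pass.

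**Figure D2:**
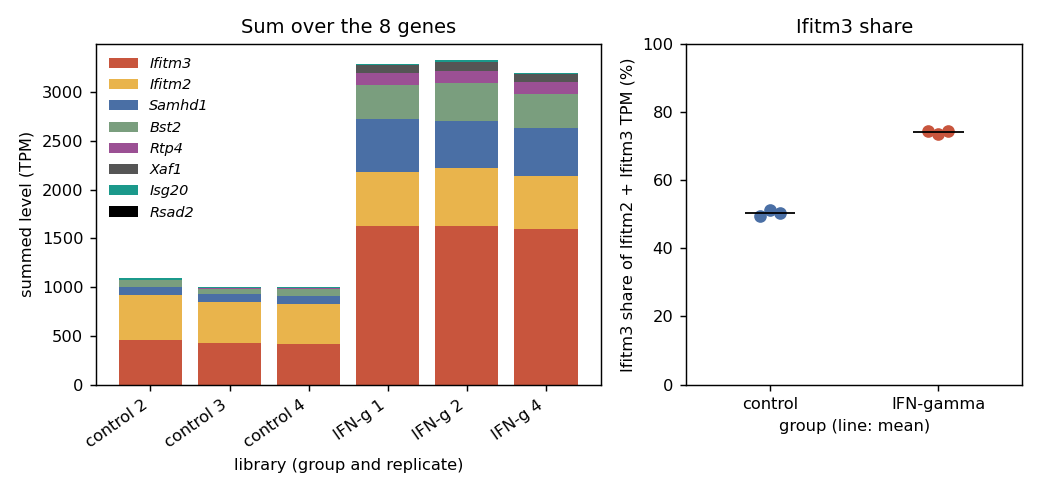
Left, TPM of the 8 genes stacked for each of the 6 libraries. Right, the share of Ifitm3 in the TPM of Ifitm2 plus Ifitm3, with points for libraries and a line at each group mean (50.3% and 74.1%). The treated stacks are about equal in height. Every part is taller in the treated libraries than in controls, and Ifitm3 gains the most TPM.

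Samhd1, a triphosphohydrolase that breaks down deoxynucleoside triphosphates (NCBI Gene 56045, chromosome 2, 157097534 to 157135096), stood at 78.1, 84.4 and 81.8 TPM in controls. In treated libraries it stood at 548, 482 and 487 TPM, close to the level of Ifitm2. Samhd1 rose with a log2 fold change of 2.77 ± 0.037 (adjusted p = 1.83e-20, edgeR), and treated replicate 1 was the highest. Its controls were already in the upper range of the transcriptome, above 86.4% of genes.

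Genes of the nucleotide pool that Samhd1 draws on did not move as one group. Of 19 genes of deoxynucleotide supply and removal, 18 were tested, 6 rose and 3 fell, with a median log2 fold change of -0.00. Over all genes tested, 19.9% rose and 18.1% fell. Pnp, a purine nucleoside phosphorylase, rose from 69.8 ± 3.49 to 123 ± 5.03 CPM (log2 0.81, edgeR adjusted p = 1.32e-10), and the adenosine deaminase Ada rose from 6.67 ± 1.25 to 12.0 ± 0.272 CPM (log2 0.84). Dctd, which deaminates dCMP, fell from 41.3 ± 2.8 to 25.6 ± 0.655 CPM (log2 -0.69, edgeR adjusted p = 4.51e-08). The ribonucleotide reductase subunits Rrm1 (log2 0.05, adjusted p = 0.475) and Rrm2 (log2 0.02, adjusted p = 0.842), named after their values were seen, did not pass.

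Of 10 genes that regulate Samhd1 or share its link to Aicardi-Goutières syndrome, a disease of misplaced nucleic acid sensing, 4 rose and none fell. Their median log2 fold change was 0.08, and 19.9% of all genes tested rose and 18.1% fell. The RNA editor Adar rose from 92.8 ± 2.1 to 204 ± 5.54 CPM (log2 1.14), the RNA sensor Ifih1 from 2.53 ± 0.274 to 15.9 ± 0.538 CPM (log2 2.65) and the DNA exonuclease Trex1 from 7.04 ± 0.954 to 17.1 ± 1.22 CPM (log2 1.28). The cyclin-dependent kinases and cyclin that phosphorylate Samhd1, named after their values were seen, did not pass: Cdk1 had log2 0.06, Cdk2 0.03 and Ccna2 0.01. Cdkn1a, the remaining member of the 4 risen genes, did pass (log2 0.52, edgeR adjusted p = 1.3e-05). Its level was 31.4 ± 2.76 CPM in controls and 45.0 ± 4.29 CPM in treated libraries, and it was likewise picked with these numbers known.

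Bst2 (tetherin; NCBI Gene 69550, chromosome 8, 71534255 to 71537472) stood at 73.5, 55.4 and 73.2 TPM in controls and at 344, 394 and 354 TPM in treated libraries. It rose with a log2 fold change of 2.54 ± 0.16 (adjusted p = 3.24e-14, edgeR). Control replicate 3 was the lowest of the controls, which gives Bst2 a wider error than Samhd1 has, and the rises of Samhd1 and Bst2 lay within about 2 of these errors of each other.

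Rtp4, a chaperone of G protein-coupled receptors (NCBI Gene 67775, chromosome 16, 23520219 to 23614222), stood at 4.72, 6.29 and 5.5 TPM in controls and at 122, 115 and 118 TPM in treated libraries. It rose with a log2 fold change of 4.16 ± 0.044 (adjusted p = 2.44e-20, edgeR), from above 39.2% of genes to above 90.7%. Some of its exon bases, 296, are shared with the gene model Gm45338 on the same strand. Xaf1, a nuclear antagonist of the apoptosis inhibitor XIAP (NCBI Gene 327959, chromosome 11, 72301461 to 72313733), stood at 2.71, 3.74 and 3.08 TPM in controls and at 82.8, 94.5 and 82.2 TPM in treated libraries. It rose with a log2 fold change of 5.13 ± 0.11 (adjusted p = 5.88e-21, edgeR). Xaf1 was the 1 gene of the 8 with counts that were not whole, in treated replicates 2 and 4.

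Of 11 genes listed as partners of Xaf1 (inhibitors of apoptosis, their antagonists, caspases and the transcription factor Trp53), 5 rose and 1 fell. Their median log2 fold change was 0.12, and 19.9% of all genes tested rose and 18.1% fell. The 1 that fell was Trp53, named after its values were seen, from 301 ± 6.44 to 273 ± 15.8 CPM (log2 -0.14, edgeR adjusted p = 0.038). The Trp53 call was lost with a replicate block (0.0548), without control replicate 2 (0.0971) or 4 (0.0645) and with treated replicate 1 (0.0532) or 4 (0.123) left out. Casp8 (log2 0.22) and Birc2 (log2 0.25) rose slightly. The Casp8 call was lost on total counts (adjusted p = 0.0511), and those of Casp8 (adjusted p = 0.218) and Birc2 (adjusted p = 0.2) with limma on log2(TPM + 1). Xiap, the inhibitor that Xaf1 is named for, had 117 ± 12.2 CPM in controls and 133 ± 8.23 CPM in treated libraries (log2 0.18, risen at adjusted p = 0.0375 with edgeR), and it was named after its values were seen. The Xiap call was lost with DESeq2 (0.056), on total counts (0.223), with upper-quartile scaling (0.13), with limma on log2(TPM + 1) (0.596), without control replicate 2 (0.226) and with treated replicate 1 (0.0683) or 4 (0.134) left out.

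Isg20, an exonuclease with a preference for single-stranded RNA (NCBI Gene 57444, chromosome 7, 78913396 to 78920396), stood at 11.9, 10.3 and 9.16 TPM in controls and at 19.3, 21.1 and 15.6 TPM in treated libraries. It rose with a log2 fold change of 0.96 ± 0.19 (adjusted p = 9.91e-06, edgeR), and its groups were separate with a wide spread in each. Of 9 relatives by RTP or exonuclease family, 6 had a row and were tested, of which 1 rose and 2 fell. Their median log2 fold change was -0.10, and 19.9% of all genes tested rose and 18.1% fell. Aen, an exonuclease that resembles Isg20, fell from 62.0 ± 2.53 to 42.5 ± 1.82 CPM (log2 -0.55, edgeR adjusted p = 2.36e-07). Rexo4 rose (log2 0.33) and Isg20l2 fell slightly (log2 -0.15, adjusted p = 0.0211). The Isg20l2 call was lost with a replicate block (adjusted p = 0.11), without control replicate 3 (0.073) and with treated replicate 2 left out (0.0624).

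**Figure D3:**
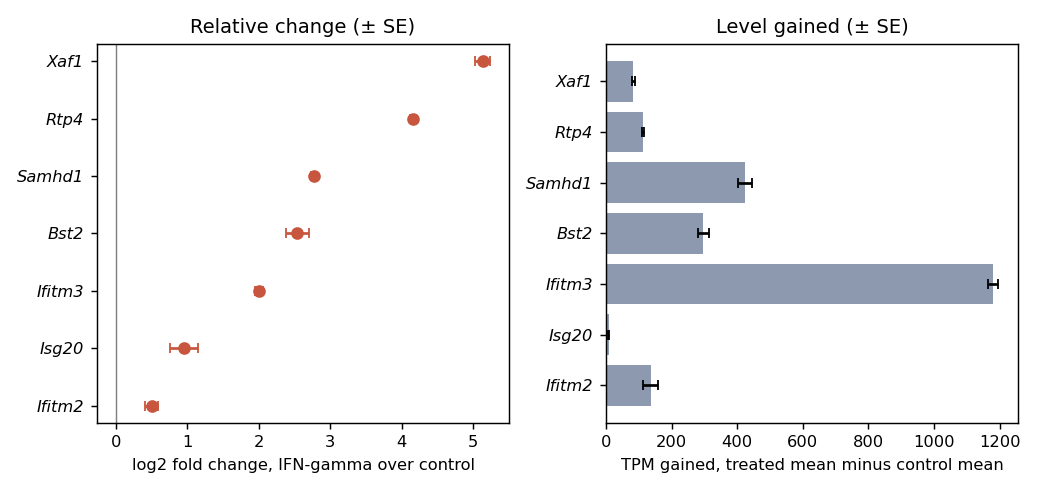
Left, log2 fold change with its SE (n = 3 per group) for the 7 tested genes. Right, TPM gained, as treated mean minus control mean, with its SE. Xaf1 and Rtp4 lead on the left and Ifitm3 on the right.

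The order of the genes differed between relative change and level gained. Ifitm3 gained 1181 ± 15.2 TPM (difference of means ± SE), Samhd1 424 ± 21.4, Bst2 297 ± 16.6, Ifitm2 136 ± 22.3, Rtp4 113 ± 2.02, Xaf1 83.3 ± 4.02 and Isg20 8.18 ± 1.81 TPM. The TPM gains of Ifitm2 and Rtp4 were within about 1 SE of each other, although their log2 fold changes were 0.51 and 4.16. The 8 genes summed to 1030 ± 51.1 TPM in controls and 3273 ± 66.5 TPM in treated libraries (mean ± SD, n = 3 per group). Ifitm2 and Ifitm3 together held most of the control sum, at 41.6% and 42.1%, and Ifitm2 dropped to 17.2% of the treated sum, while Samhd1 went from 7.92% to 15.5%.

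In controls the levels ran in the order Ifitm3, Ifitm2, Samhd1, Bst2, Isg20, Rtp4, Xaf1 and Rsad2. Among these only the neighbours Ifitm3 and Ifitm2 overlapped between libraries. In treated libraries the order was Ifitm3, Ifitm2, Samhd1, Bst2, Rtp4, Xaf1, Isg20 and Rsad2. Ifitm2 and Samhd1 then overlapped by a hair, with the lowest Ifitm2 library at 548.13 TPM and the highest Samhd1 library at 548.46 TPM. Isg20, above Rtp4 and Xaf1 in every control, lay below both in every treated library.

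Rsad2 (viperin; NCBI Gene 58185, chromosome 12, 26442743 to 26456452) was close to silent in both groups. It had 2, 1 and 3 counts in controls and 7, 8 and 6 in treated libraries, or 0.05, 0.03 and 0.08 TPM against 0.17, 0.19 and 0.15 TPM. The groups were separate, and the depth-scaled ratio of the totals, 6 against 21, was 3.72 (exact 95% binomial interval 1.45 to 11.3, counting error only). With no count filter the edgeR fit over 14684 genes gave log2 1.83 (adjusted p = 0.0242), all 8 genes rose, against 16% of genes in that fit, and their median log2 fold change was 2.27. Its treated level was above that of 18.2% of genes, against 11.3% in controls.

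Cmpk2, a mitochondrial nucleotide kinase whose gene lies 12664 bases from Rsad2 and whose product supplies the substrate of viperin, was as low, with 1, 0 and 1 counts in controls and 7, 1 and 7 in treated libraries. Treated replicate 2 was at the control level, so the groups overlapped. The depth-scaled ratio of the Cmpk2 totals, 2 against 15, was 7.98 (exact 95% binomial interval 1.86 to 71.9, counting error only), and with no count filter Cmpk2 rose (edgeR log2 2.78, adjusted p = 0.0163). Of 8 genes whose products act with or on viperin, 7 were tested and 1 rose, with a median log2 fold change of 0.08. The share risen over all genes tested was 19.9%. The 1 that rose was Fdps, the farnesyl diphosphate synthase of the sterol pathway, from 162 ± 2.92 to 220 ± 5.86 CPM (log2 0.44, adjusted p = 2.65e-07, edgeR). The iron-sulfur assembly factors Ciao1 (log2 0.15, adjusted p = 0.105) and Ciao2b (log2 -0.14, adjusted p = 0.11) did not pass, and Ciao2b passed as a fall on total counts (log2 -0.21, adjusted p = 0.0137), with upper-quartile scaling (adjusted p = 0.0281), with limma on log2(TPM + 1) (adjusted p = 0.00236) and without control replicate 3 (adjusted p = 0.036).

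Other restriction factors of the same broad kind were read from a list of 31 genes. Of 26 with a row, 24 were tested, 17 rose and none fell, against 19.9% and 18.1% of all genes tested. Among the 17, Ddx60 had 3, 3 and 4 counts in controls, and Ifi44 and Slfn2 had 1, 0 and 0 each. These genes met the count filter through their treated libraries only, so their rises add no support to the count of risen genes. The median log2 fold change of the 24 was 0.97. Ifi35, a partner of Nmi, rose from 19.5 ± 0.855 to 101 ± 1.58 CPM (log2 2.37, adjusted p = 3.88e-18, edgeR). The kinase Eif2ak2 (PKR), which stops translation on sensing double-stranded RNA, rose from 78.6 ± 2.89 to 304 ± 7.1 CPM (log2 1.95), and the helicase Mov10 from 65.1 ± 1.8 to 249 ± 15 CPM (log2 1.93). Marchf8 (log2 -0.11, adjusted p = 0.143), named after its values were seen and given in the tables as March8, did not pass with TMM scaling and passed as a fall on total counts (log2 -0.18, adjusted p = 0.0164), with upper-quartile scaling (adjusted p = 0.0292) and with limma on log2(TPM + 1) (adjusted p = 0.0342). Mx1, Mx2, Shfl, Ch25h and Ifi44l were not analysed here.

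Of 17 signal and transcription factor genes of the interferon response, 13 rose and 3 fell, against 19.9% and 18.1% of all genes tested. Their median log2 fold change was 1.11. The list also holds receptor chains and inhibitors of the signal, and which genes act on which was not tested. Irf1, a transcription factor that binds ISRE-like elements, rose from 84 to 929 TPM and Stat2, a part of the complex that binds the ISRE, from 5.8 to 72.7 TPM (mean of 3 libraries each). Of 9 interferon genes listed, 2 had a row, Ifna1 and Ifne, whose summed CPM was 0 to 0.107 in control libraries and 0 in every treated library. The other 7, Ifnb1 and Ifng among them, were not analysed here.

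**Figure D4:**
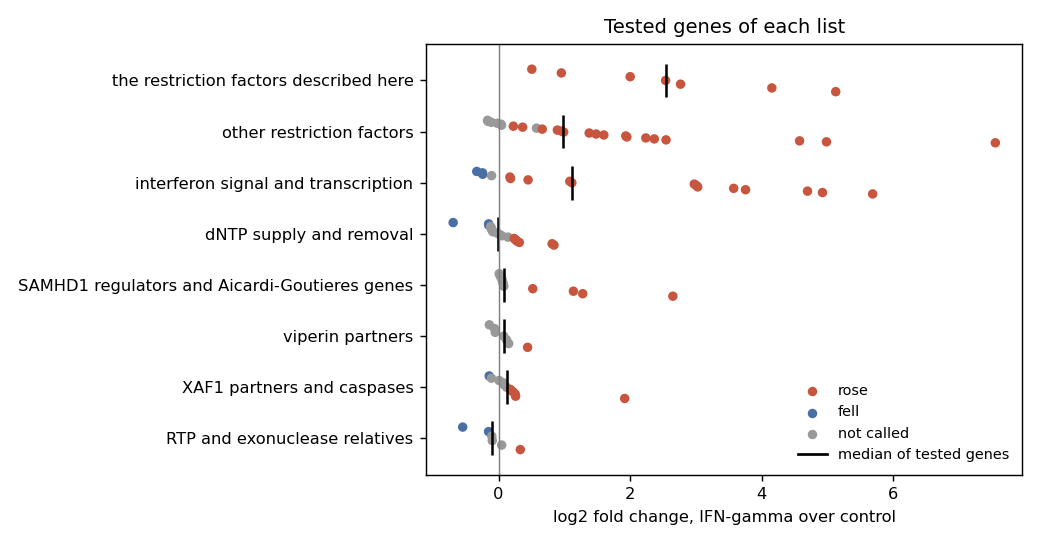
Log2 fold change of each tested gene in the restriction factors described here and in 7 related lists, colored by call with edgeR at an adjusted p under 0.05, with a line at the median of each list. Medians lie between -0.10 and 1.11 in the related lists and at 2.54 in the top row.

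Position along the chromosome was compared with the nearest genes that have a row. Samhd1 lies 10796 bases from Rbl1, a relative of the retinoblastoma protein, which rose from 82.1 ± 2.35 to 117 ± 5.81 CPM (log2 0.51, adjusted p = 1.62e-07, edgeR). Bst2 lies 5434 bases from Mvb12a, a subunit of the ESCRT-I complex that takes part in virus budding, which rose slightly (log2 0.20, adjusted p = 0.0238) and whose TPM overlapped between the groups. The Mvb12a call was lost with DESeq2 (adjusted p = 0.0739), on total counts (0.148), with upper-quartile scaling (0.0979), with limma on log2(TPM + 1) (0.3), with a replicate block (0.214), without control replicate 3 (0.161) and with treated replicate 1 (0.108) or 2 (0.0564) left out. Fbxo39 lies 710 bases beyond the end of Xaf1 and went from 2, 2 and 0 counts in controls to 20, 15 and 20 in treated libraries (adjusted p = 5.98e-06).

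Neighbours also fell beside genes that rose. Aen lies 2186 bases from Isg20 and fell, as described above. Masp1, a complement-activating protease whose annotated span overlaps that of Rtp4 by 1022 bases, fell from 37.8 ± 2.1 to 24.3 ± 2.25 CPM (log2 -0.64, edgeR adjusted p = 5.36e-07). Bcl6, a transcriptional repressor 350827 bases away on the other side of Rtp4, rose from 22.1 ± 0.652 to 31.9 ± 1.27 CPM (log2 0.53, edgeR adjusted p = 1.92e-06). Id2, the nearest gene with a row before Rsad2, lies 1346650 bases away and had log2 -0.07 (edgeR adjusted p = 0.524). Tldc2, Ccdc194, Hapln3 and Slc13a5 were too low to be tested. They lie 585, 8529, 196630 and 34165 bases from Samhd1, Bst2, Isg20 and Xaf1.

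Genes whose response was most like that of each tested gene were found by Euclidean distance over the 6 libraries between log2 CPM values taken relative to the control mean. For Samhd1 these were Cdc42ep2 (distance 0.0835, log2 fold change 2.80) and Apol9a (0.164, 2.82), and for Ifitm3 they were Upp1 (0.119, 2.00) and Rnf19b (0.127, 2.03). Bst2 was nearest to Nmi (0.218, 2.55) and Parp3 (0.373, 2.44), and Ifitm2 to Fam162a (0.0626, 0.47) and Acsl6 (0.0973, 0.51). Isg20 was nearest to Ifi27 (0.344, 0.99) and Fbxw17 (0.354, 0.95), Rtp4 to Trim21 (0.184, 4.12) and Ifit3 (0.257, 4.33), and Xaf1 to Irgm1 (0.38, 4.94) and Cd274 (0.545, 5.35).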

How the data were processed

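RNA of 6 samples was extracted with a column kit and read on DNBSEQ instruments, per the labels' protocols. The submitters' processing notes list HISAT and HISAT2 and the builds mm10 and GRCm38.p6, without roles, and the counting program and strand setting are not given in the sources used here. Estimated counts were deposited per gene, with 6.8% to 7.37% of values per library not whole. TPM values, deposited beside them, were used for levels, and the deposited FPKM values were not used.

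Counts were rounded, filtered with filterByExpr (minimum count 10), scaled by TMM and tested with edgeR 4.0.16 (glmQLFit with robust=TRUE, glmQLFTest) across all 11423 genes, with Benjamini-Hochberg adjustment and a threshold of 0.05. CPM used effective library sizes, and SEs came from log2 CPM of the replicates with a prior count of 2, which understates the error of low genes. The members and lists were chosen with earlier results of these data known. Named are all 8 members, the 3 tested genes of each list that have the smallest adjusted p, all genes of lists with 5 or fewer rows, the nearest gene with a row on each side of each member and the 2 genes of nearest response. For 2 genes that the rule picks, values are not reported here. Alternatives were DESeq2 1.42.0, limma 3.58.1 (voom, and log2(TPM + 1) or log2(TPM + 0.1)), other scalings and filters, a threshold of 0.01, glmTreat against a fold of 2, a replicate block and each library left out. Of 14701 genes, 14654 were placed on RefSeq GRCm38.p6 by identifier. Exon overlaps came from GENCODE M21, on the same build. The edgeR fit was tested on simulated counts without low-count genes, and the other steps were not.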

Additional observations from a re-analysis of the deposited data

How the results depend on the processing

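The members' count was 7 in every alternative except the fit with no count filter, where Rsad2 made it 8, and glmTreat against a fold of 2, where it was 5 because Ifitm2 and Isg20 lie under that fold. None of the 7 members tested changed direction over 18 alternatives, and Rsad2 had a value in the fit with no filter only. Log2 fold changes ran from 0.40 to 0.59 for Ifitm2, 0.77 to 1.11 for Isg20, 1.90 to 2.06 for Ifitm3, 2.40 to 2.63 for Bst2, 2.62 to 2.79 for Samhd1, 4.08 to 4.41 for Rtp4 and 4.39 to 5.25 for Xaf1. The share of Ifitm3 rose by 23.9 percentage points when taken from counts and by 23.3 to 24.2 with a library left out. Over the related lists 47 genes rose and 9 fell, while 19.9% of all genes tested rose and 18.1% fell. Risen genes numbered 22 with glmTreat, and fallen genes 0 with glmTreat, 15 with limma on either TPM pseudocount, 17 on total counts, 15 with upper-quartile scaling, 4 at a threshold of 0.01 and 5 with the replicate block. With a library left out, 44 to 47 genes rose and 5 to 10 fell, the 5 without control replicate 2. Over all 11423 genes tested, 2278 rose and 2069 fell. These numbers were 1644 and 3124 on total counts, 1775 and 2823 with upper-quartile scaling and 1294 and 3229 with limma on log2(TPM + 1). The replicate block changed no member's call. Numbers 2 and 4 are shared by both groups, and the deviations of same-numbered libraries correlated at 0.13 and -0.09 across genes. With 3 libraries per group, these correlations cannot show whether same-numbered libraries were handled together, which the labels do not say. Low counts limit Rsad2, Cmpk2, Ifitm1, Ifitm5 and Fbxo39, and low control counts limit Ddx60, Ifi44 and Slfn2.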
